A study of Mus musculus with 12 samples.

Results

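Clk1, Clk2, Clk3 and Clk4, the CDC-like kinases, and Cirbp and Rbm3, the cold-inducible RNA-binding genes, were followed through the LV of offspring from non-diabetic and diabetic pregnancies. They are 6 of the 46983 genes counted, found by their Ensembl identifiers, and were chosen by their normalized counts and fitted differences in these samples, all already known. Their differences between groups are therefore given as a description, and nothing is read from the test calls printed for them. Clk1 was also among the genes that the study itself listed from the same libraries.

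CLK kinases phosphorylate the SR proteins, a family of splicing factors rich in arginine and serine, and so release them from nuclear speckles to act on pre-mRNA. CLK1 and CLK4 are close relatives whose activity rises when body temperature falls, and both genes carry introns that are often retained in nuclear transcripts. CIRBP and RBM3 are small RNA-binding proteins, induced by mild cooling, that bind mRNA and influence its stability, translation and choice of polyadenylation site. Both have also been described as responsive to hypoxia, independently of HIF-1.

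The 4 groups had 3 LVs each. Offspring called diabetic here, Wt or Hif1a+/-, came from FVB Wt dams made diabetic with streptozotocin before mating, and offspring called non-diabetic from dams that were not. The dams were mated with Hif1a+/- males carrying the Hif1a tm1jhu null allele, so that a Hif1a+/- animal had 1 null copy in every cell and not in the heart alone. The mice were 12 weeks old, and the study states that the LVs of a group came from several litters, while the litter of each animal is not given in the sources used here. All groups shared the FVB background. The dam's streptozotocin treatment and her diabetes cannot be told apart here.

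Total counts per library were between 16132442 and 39812939. The labels give the animals as female and the study as male, and 4 Y-linked genes together exceeded Xist in 11 of the 12 libraries, the exception being diabetic Hif1a+/- replicate 72. The fitted differences of diabetic Hif1a+/- that rest on this library are given with and without it. Hif1a itself was no check of the genotype, because a null allele can still give 3′ reads. Its normalized counts were higher in Hif1a+/- than in Wt within each pregnancy, without overlap. They were 1769.1 to 2004.1 against 1249.2 to 1617.6 after non-diabetic pregnancy, where 2.45% of all genes lay wholly higher. After diabetic pregnancy they were 1447.6 to 1844.1 against 1080.6 to 1328.2, where 4.26% did. Why the level was higher was not tested. The 8 cardiomyocyte markers summed to between 79500 and 90200 CPM (counts scaled to the library total) in every library, and none was at 0. In bulk LV, fewer cells of a type and less RNA per cell cannot be told apart.

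RefSeq promoter windows of GRCm38.p6, from 250 bases before to 50 after a start site, matched 4 of the 6 genes, with no entry for Clk1 or Rbm3. They are shown because HIF-1, the clock and the Sp1 family each have a short known site that could be looked for. Both strands were searched for ACGTG, a form of the hypoxia response element core, and for the E-box CACGTG, which contains ACGTG on each strand. The GC box GGGCGG and the heat shock element core GAANNTTC were also searched for. The form GCGTG of the hypoxia response element core was not. Of all 32851 windows in the table, 19.6% held ACGTG, 7.15% CACGTG, 35.7% GGGCGG and 7.86% GAANNTTC. Clk2 is printed as the member with both an E-box and a further ACGTG, in capitals, and Clk4 and Cirbp, whose levels ran with those of Clk1 and Rbm3, with each GC box in capitals.
Clk2, chr3:89164545-89164844, plus strand: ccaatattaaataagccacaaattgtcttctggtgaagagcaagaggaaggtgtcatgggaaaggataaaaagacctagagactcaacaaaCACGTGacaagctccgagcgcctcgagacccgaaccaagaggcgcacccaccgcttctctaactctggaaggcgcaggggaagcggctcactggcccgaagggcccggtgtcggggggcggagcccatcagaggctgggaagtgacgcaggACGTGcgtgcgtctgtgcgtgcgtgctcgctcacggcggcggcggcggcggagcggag
Clk4, chr11:51262864-51263163, plus strand: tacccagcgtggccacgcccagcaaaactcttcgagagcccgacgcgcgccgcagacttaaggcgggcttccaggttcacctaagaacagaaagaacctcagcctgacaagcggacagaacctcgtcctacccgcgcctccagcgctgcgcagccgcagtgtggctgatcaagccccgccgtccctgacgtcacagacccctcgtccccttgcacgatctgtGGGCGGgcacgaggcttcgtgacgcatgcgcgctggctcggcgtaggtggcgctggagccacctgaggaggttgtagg
Cirbp, chr10:80167589-80167888, plus strand: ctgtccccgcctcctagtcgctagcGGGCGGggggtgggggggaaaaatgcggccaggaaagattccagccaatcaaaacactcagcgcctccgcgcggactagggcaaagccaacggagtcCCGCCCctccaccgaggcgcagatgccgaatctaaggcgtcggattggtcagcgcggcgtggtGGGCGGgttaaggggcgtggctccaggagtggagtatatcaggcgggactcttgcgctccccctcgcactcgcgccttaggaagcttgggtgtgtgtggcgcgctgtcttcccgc
In Clk2 the E-box began 159 bases and the separate ACGTG 8 bases before the start site. Clk4 had 1 GC box and this Cirbp window 3, with neither ACGTG nor CACGTG in either. GCGTG occurs in each of the printed windows, and its share over all windows was not counted. A further Cirbp window, chr10:80167921-80168220, held 4 GC boxes, and the Clk3 window 2 GC boxes and 1 ACGTG at its far edge. GAANNTTC was in none of these 5 windows. A match is a description of the letters alone.

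Clk1, on chromosome 1 from 58410189 to 58424066 on the minus strand, had its lowest levels in diabetes-exposed Hif1a+/- LVs. Normalized counts, meaning counts divided by the size factor of the library, were 1873.8, 2018.9 and 2200.0 in non-diabetic Wt. They were 1757.9, 2004.1 and 2097.7 in diabetic Wt, then 1643.8, 1646.2 and 2028.6 for non-diabetic Hif1a+/-, and 1367.5, 1392.5 and 1522.2 in diabetic Hif1a+/-. All 3 diabetic Hif1a+/- values lay below each of the other 9, while the other 3 groups overlapped one another. The group means followed the order non-diabetic Wt at 2030.9 ± 163, diabetic Wt at 1953.2 ± 176, non-diabetic Hif1a+/- at 1772.9 ± 221 and diabetic Hif1a+/- at 1427.4 ± 83.1 (SD, n = 3 each). The neighbours in the first 3 places differed by less than their spread.

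On the log2 scale of the edgeR fit, Clk1 in diabetic Hif1a+/- differed by -0.32 ± 0.10 (SE; 95% interval from -0.55 to -0.09) from non-diabetic Hif1a+/- and by -0.46 ± 0.10 (from -0.68 to -0.23) from diabetic Wt. Against non-diabetic Wt the difference was -0.51 ± 0.11 (from -0.74 to -0.29), a fold of 0.7. These comparisons share the diabetic Hif1a+/- libraries. Without replicate 72 the differences were -0.30, -0.44 and -0.50. Without non-diabetic Hif1a+/- replicate 14, the highest of its group, the first was -0.21. Diabetic pregnancy in Wt gave -0.06 ± 0.10, and the interval of the genotype by pregnancy interaction, from -0.58 to 0.06 about -0.26, held 0. Without diabetic Hif1a+/- replicate 72 the interaction was -0.24 (from -0.6 to 0.11).

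**Figure D1:**
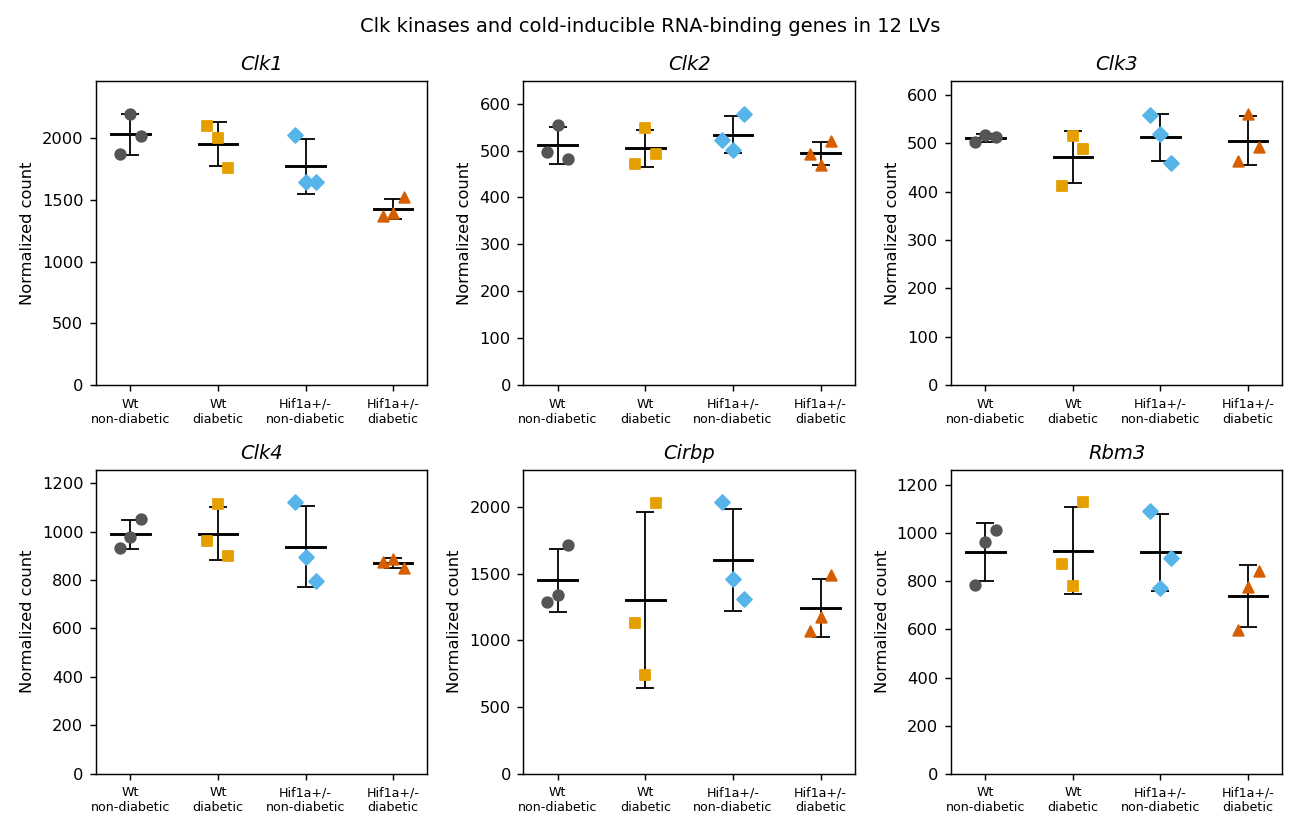
Normalized counts of the 6 genes in each of the 12 LVs, by group (points, 3 per group; line, mean; bar, SD; axis from 0). Clk1 in diabetic Hif1a+/- lies between 1367.5 and 1522.2, below the 9 other LVs, and Cirbp spans 743.0 to 2031.7 within diabetic Wt alone.

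Clk4, on chromosome 11 from 51261730 to 51281766 on the plus strand, varied less. Its normalized counts were 933.4, 978.0 and 1053.2 in non-diabetic Wt, 900.2, 962.0 and 1113.8 in diabetic Wt, then 797.7, 894.7 and 1120.9 for non-diabetic Hif1a+/-, and 847.6, 876.2 and 886.1 in diabetic Hif1a+/-. The diabetic Hif1a+/- LVs lay just below all Wt LVs of either pregnancy and inside the range of non-diabetic Hif1a+/-, which held both the lowest and the highest of the 12 values. The difference of diabetic Hif1a+/- was -0.19 ± 0.12 from diabetic Wt (95% interval from -0.45 to 0.07) and -0.19 ± 0.12 from non-diabetic Wt, both intervals holding 0. Without replicate 72 these were -0.21 and -0.20. Against non-diabetic Hif1a+/- the difference was -0.12 ± 0.12, -0.13 without replicate 72 and 0.04 without replicate 14 of the non-diabetic group. BC049762 and Gm25082, which overlap Clk4, had at most 11.6 and 19.2 normalized counts.

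Clk2 and Clk3 were nearly level. Clk2, on chromosome 3 from 89164795 to 89176921, ranged from 470.1 to 578.8 normalized counts over all 12 LVs, with group means between 493.9 and 534.1. Clk3, on chromosome 9 from 57750624 to 57765860, ranged from 410.8 to 561.5, with group means between 471.6 and 512.5. The groups of both genes overlapped in each of the 5 comparisons between 2 groups. The intervals for diabetic against non-diabetic Hif1a+/- ran from -0.33 to 0.09 for Clk2 and from -0.27 to 0.21 for Clk3, and so held the Clk1 difference of -0.32 at their edge or left it outside. Without replicate 72 the fitted differences of Clk2 and Clk3 were -0.08 and -0.11. The 3′ ends of Clk3 and of Edc3, an mRNA decapping factor on the opposite strand, overlap over 1204 exonic bases. Whether counting used the strand is not given in the sources used here, and without strand reads in that stretch could not be assigned to either gene.

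Diabetic Hif1a+/- lay wholly below non-diabetic Hif1a+/- for 1 of the 6 genes, Clk1, as for 12.6% of the 14706 genes tested, and wholly above it for 0 of the 6, against 11.8%. It lay wholly below diabetic Wt for 2 of the 6, Clk1 and Clk4, against 3.42% of genes, and wholly above for 0 of the 6, against 4.26%. It lay wholly below non-diabetic Wt for Clk1 and Clk4, against 6.86%, and wholly above for 0, against 7.81%. Diabetic Wt was wholly below or above non-diabetic Wt for 0 of the 6, against 3.35% and 2.24%, and non-diabetic Hif1a+/- below or above non-diabetic Wt for 0, against 2.31% and 2.45%. With edgeR's quasi-likelihood test 0 of the 6 and 0.0% of all genes passed an adjusted p of 0.1 in any comparison, and an unadjusted p was under 0.05 for Clk1 alone of the 6 in the comparisons of diabetic Hif1a+/- with non-diabetic Hif1a+/-, diabetic Wt and non-diabetic Wt, where it was for 12.0%, 5.35% and 8.85% of all genes. DESeq2, the tool of the study, called Clk1 alone, where it called 0.155% of genes against diabetic Wt, 0.453% against non-diabetic Wt and 0.76% among the 4 groups. Against non-diabetic Hif1a+/- it called 1.44% of genes and 0 of the 6, and in the comparisons without diabetic Hif1a+/- 0.0148% for pregnancy in Wt, 0.00369% for genotype after non-diabetic pregnancy and 0 of the 6. Without its filter on low counts edgeR also called Clk1 alone, beside 0.812%, 1.64% and 2.54% of genes against diabetic Wt, against non-diabetic Wt and among the 4 groups. It called 0 of the 6 beside 2.19% for pregnancy in Hif1a+/-, 0.476% for pregnancy in Wt, 0.122% for genotype after non-diabetic pregnancy and 0.288% for the interaction. The genes were chosen with these values known, so nothing is read from these counts.

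**Figure D2:**
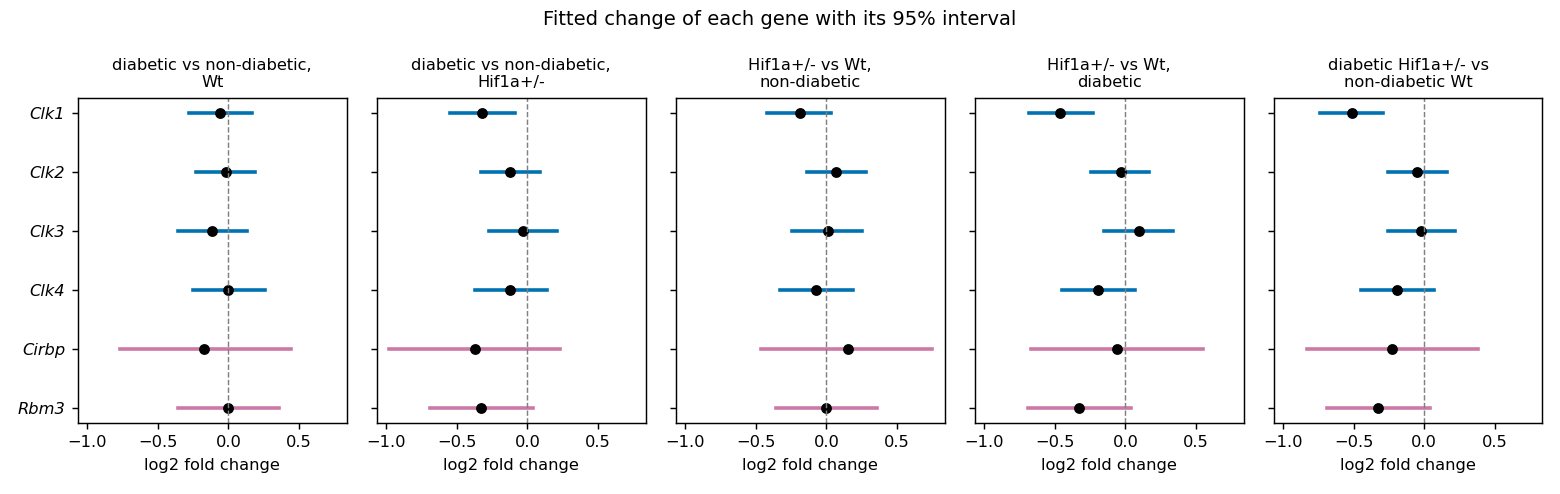
Fitted log2 fold change of each gene (point) with its 95% interval (line; blue for the Clk kinases, pink for Cirbp and Rbm3) in the 5 comparisons between 2 groups. The Clk1 intervals lie below 0 in the 3 comparisons with diabetic Hif1a+/-, at -0.32, -0.46 and -0.51, and each other interval holds 0.

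Markers of several other cell types also differed in level in the LVs where Clk1 was lowest. The 7 macrophage markers, led by Lyz2, summed to between 469 and 691 CPM in diabetic Hif1a+/-, against 232 to 346 in non-diabetic Hif1a+/-, 319 to 525 in diabetic Wt and 310 to 441 in non-diabetic Wt. The 6 adventitial and mesothelial markers, led by Pi16, summed to between 173 and 384 CPM there and to between 95.6 and 138 in the other groups. All 7 macrophage markers were higher in diabetic than in non-diabetic Hif1a+/-, with a median log2 difference of 0.87. Of them edgeR called 0, an unadjusted edgeR p was under 0.05 for 7 and DESeq2 called 4. In this comparison 12.0% of all genes had such a p and DESeq2 called 1.44%. Without replicate 72 the macrophage median was 0.96. By staining, the study found more infiltrating macrophages in diabetes-exposed Wt LVs only, which is a cell count and not an RNA level. The adventitial list had 5 of 6 higher with a median of 0.81, and 3 of 6 higher with a median of 0.34 without replicate 72. With all libraries 3 of its genes had an unadjusted edgeR p under 0.05, edgeR called 0 and DESeq2 called 3. All 7 fibroblast markers, led by Dcn, were higher too, with a median of 0.24 (0.15 without replicate 72), and their sum was 1500 to 2130 CPM against 1480 to 1630 in non-diabetic Hif1a+/-. Of the 6 smooth muscle and pericyte markers, led by Rgs5, 4 were lower with a median of -0.29 (-0.35 without replicate 72), DESeq2 called 1, and their sum was 843 to 939 CPM against 967 to 1070. Cardiomyocyte markers overlapped between the groups, with 81000 to 90200 CPM in diabetic Hif1a+/- against 79500 to 87500 in non-diabetic Hif1a+/-. No macrophage or adventitial marker was at 0 in any group. Over the 12 LVs Clk1 had a Pearson's r of -0.54 with the macrophage sum (Spearman's rho -0.53), and -0.04 once each value was taken as its deviation from the group mean. With the fibroblast sum the r was -0.46 (rho -0.39), and -0.10 for deviations, and all 7 single fibroblast markers had a negative r with Clk1, with a median of -0.51 against -0.46 for the macrophage markers. With the smooth muscle and pericyte sum it was 0.47 (rho 0.41), and 0.17 for deviations. The adventitial and mesothelial sum had the strongest r of these with Clk1, -0.68 (rho -0.76), and 0.15 for deviations. The part of these cell types in the Clk1 difference was not tested.

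The RNAs that CLK kinases act beside were examined next, in lists that were also chosen with earlier results of these data known. In diabetic against non-diabetic Hif1a+/-, 9 of 10 tested SR proteins and 19 of 21 SR-related and nuclear speckle proteins had lower fitted levels, with median log2 differences of -0.15 and -0.23 beside -0.00588 over all 14706 genes. Without replicate 72 these medians were -0.16 and -0.19. In Wt the medians were -0.07 and -0.09. No gene of either list passed the edgeR or the DESeq2 threshold in any comparison, and in Hif1a+/- an unadjusted edgeR p was under 0.05 for 1 of 10 and 8 of 21, beside 12.0% of all genes. The smallest edgeR adjusted p there was 0.319. Neither list was tested as a set.

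Among the SR-related proteins, Rbm25, a regulator of splice site choice, had 1581.5, 1452.5 and 1451.3 normalized counts in diabetic Hif1a+/- replicates 66, 72 and 77 against 2040.8, 1822.2 and 1875.3 in non-diabetic Hif1a+/- (log2 difference -0.36 ± 0.12, and -0.34 without replicate 72). Luc7l2, a component linked to the U1 snRNP, had 2673.9, 2744.7 and 2705.7 against 3837.9, 3176.2 and 3018.3 (-0.31 ± 0.11, and -0.32 without replicate 72). Neither pair of groups overlapped, where 12.6% of all genes lay wholly lower in diabetic Hif1a+/-. Both genes were named for the smallest p of their list in this comparison, so nothing is read from the separation. Of the SR proteins, Srsf11 differed by -0.26 ± 0.11 and Srsf3, a regulator of splicing and mRNA export, by -0.19 ± 0.12, which were -0.23 and -0.11 without replicate 72. In Wt these 4 genes overlapped between pregnancies, with differences of -0.10 for Rbm25, -0.04 for Luc7l2, -0.13 for Srsf11 and 0.0 for Srsf3.

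Of the 7 tested other kinases of SR proteins and of the DYRK family, 6 were lower in Hif1a+/- with a median of -0.12, and 7 in Wt with a median of -0.05. Dyrk2 differed by -0.53 ± 0.25 in Hif1a+/-, with 109.9 to 177.9 normalized counts after diabetic pregnancy against 171.2 to 209.9, and Prpf4b, a kinase of the spliceosome, by -0.25 ± 0.17, which were -0.43 and -0.20 without replicate 72. In Wt they differed by -0.06 and -0.02. Dyrk3 and Dyrk4 were too low to be tested. Of 25 hnRNP genes, which code for RNA-binding proteins that often oppose SR proteins, 19 were lower in Hif1a+/- with a median of -0.07. Rbmx differed by -0.31 ± 0.11 in Hif1a+/- (-0.38 without replicate 72) and by -0.25 ± 0.11 in Wt, without overlap in either genotype. Of all genes 12.6% lay wholly lower after diabetic pregnancy in Hif1a+/- and 3.35% in Wt. Syncrip differed by -0.25 ± 0.09 in Hif1a+/- (-0.22 without replicate 72) and by -0.10 ± 0.09 in Wt, where its groups overlapped.

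Cardiac splicing regulators had a median of -0.11, with 8 of 9 lower. Rbm20, which governs the splicing of titin, had 5191.5 to 5353.3 normalized counts in diabetic Hif1a+/- and 5851.5 to 6759.4 in non-diabetic Hif1a+/-. These did not overlap, where 12.6% of all genes lay wholly lower (-0.26 ± 0.09, and -0.26 without replicate 72), and Rbm20 differed by 0.01 in Wt. Qk, the Quaking RNA-binding protein, had 7730.7 to 9660.8 against 9982.2 to 11871.0 (-0.35 ± 0.14, and -0.28 without replicate 72), and differed by -0.08 in Wt. The 6 nuclear-retained RNAs ran the other way, with 5 higher and a median of 0.25, including the imprinted long non-coding RNAs Rian at 0.44 ± 0.18 and Meg3 at 0.53 ± 0.26. In Wt Rian differed by 0.35 ± 0.18 and Meg3 by 0.03 ± 0.26. Without replicate 72 the medians of the kinases, the hnRNP genes, the cardiac regulators and the nuclear-retained RNAs were -0.08, -0.08, -0.08 and 0.30, and Rian and Meg3 stood at 0.42 and 0.60. No gene of these 4 lists passed either threshold here, and an unadjusted edgeR p was under 0.05 in Hif1a+/- for 0 of 7, 3 of 25, 3 of 9 and 1 of 6 genes, beside 12.0% of all genes.

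**Figure D3:**
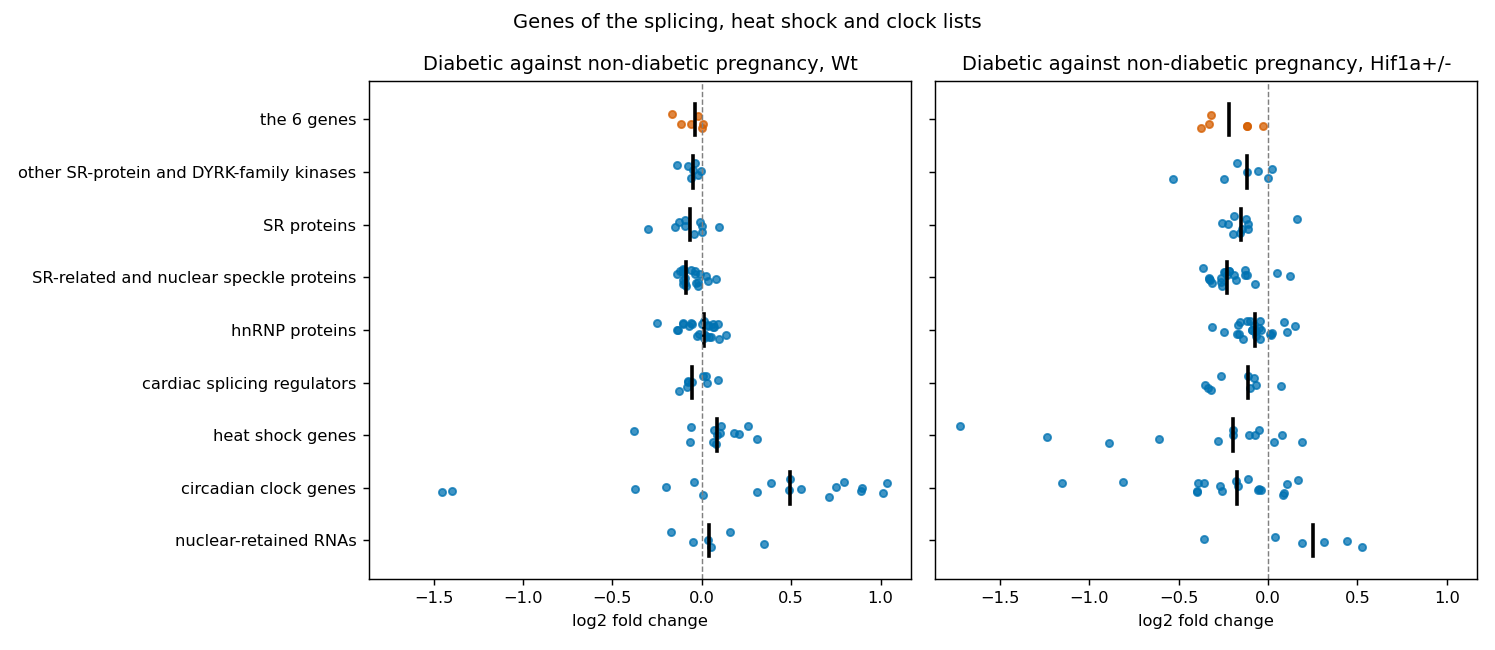
Fitted log2 fold changes of the tested genes of each list (points; bar, median) for diabetic against non-diabetic pregnancy in Wt (left) and Hif1a+/- (right). The SR-related list has a median of -0.09 in Wt and -0.23 in Hif1a+/-, and the circadian clock list is the widest in Wt, from -1.45 to 1.03.

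Cirbp, on chromosome 10 from 80165985 to 80172786, varied most within groups. Its normalized counts were 1287.0, 1341.5 and 1716.1 in non-diabetic Wt, 743.0, 1131.5 and 2031.7 in diabetic Wt, then 1312.2, 1459.0 and 2033.8 for non-diabetic Hif1a+/-, and 1071.6, 1171.3 and 1488.3 in diabetic Hif1a+/-. All 4 groups overlapped, and the diabetic Wt group alone spanned nearly the whole range of the 12 LVs. The SD within groups was 0.429 on the log2 scale, above that of 98.5% of the 2003 genes within 0.5 log2 units of its level, which had a median of 0.126. 

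The group differences of Cirbp were accordingly wide. Diabetic against non-diabetic pregnancy gave -0.17 ± 0.28 in Wt (95% interval from -0.77 to 0.44) and -0.37 ± 0.28 in Hif1a+/- (from -0.98 to 0.23). The Hif1a+/- value was -0.33 without replicate 72 and -0.16 without non-diabetic replicate 14. The Wt value was -0.63 without diabetic replicate 80 and 0.12 without diabetic replicate 7, so a single LV set its direction.

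Rbm3, on the X chromosome from 8138975 to 8145880, differed little among 3 of the 4 groups. Its normalized counts were 786.7, 965.8 and 1013.6 in non-diabetic Wt, 780.4, 873.6 and 1128.9 in diabetic Wt, then 771.9, 898.1 and 1092.1 for non-diabetic Hif1a+/-, and 597.7, 776.9 and 844.6 in diabetic Hif1a+/-. The diabetic Hif1a+/- group was lowest but overlapped each of the others, and the means of the other 3 groups differed by less than their spread. Its difference was -0.33 ± 0.17 from non-diabetic Hif1a+/- (from -0.69 to 0.04), -0.36 without replicate 72 and -0.18 without non-diabetic Hif1a+/- replicate 14. The SD of Rbm3 within groups, 0.245, exceeded that of 90.8% of genes of like level. Its antisense neighbour Rbm3os and the copy Rbm3-ps stayed at or below 9.0 normalized counts in all libraries.

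Cirbp and Rbm3 varied together. Over the 12 LVs their log2 CPM had a Pearson's r of 0.72 (Spearman's rho 0.71), 0.81 for deviations from the group means and 0.77 without the 2 LVs farthest from the median of Cirbp. Clk1 and Clk4 had an r of 0.72 (rho 0.78), 0.67 for deviations and 0.77 without the 2 LVs farthest in Clk1. The kinases and the cold-inducible genes did not share this course, with an r of 0.10 between Clk1 and Cirbp and -0.03 between Clk4 and Cirbp, although Clk1 and Rbm3 had an r of 0.60, which was 0.33 for deviations and 0.27 without the 2 LVs farthest from the median of Clk1. These are descriptions over libraries that share their preparation and depth.

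Heat shock genes, here a list of chaperones, co-chaperones and a heat shock transcription factor, ran opposite to Cirbp. All 13 tested heat shock genes had a negative r with Cirbp over the 12 LVs, with a median of -0.54 where the median over all genes was 0.0, and 12 of 13 had one with Rbm3, with a median of -0.33. The extreme was Hspb1, a small heat shock protein, with an r of -0.84 (rho -0.87) with Cirbp. In all 4 groups the LV with the most Cirbp, which was also the one with the most Rbm3, had the lowest summed heat shock level. Thus non-diabetic Hif1a+/- replicate 14 had 3550 CPM and 2033.8 normalized counts of Cirbp, where replicate 44 of the same group had 5640 CPM and 1312.2. In diabetic Wt, replicate 80 had 4010 CPM and 2031.7, and replicate 50 had 6070 CPM and 1131.5. The list's highest normalized counts were those of Hsp90ab1 (37550.0 to 55916.8) and Hspa8 (11621.2 to 28971.4), so the sum weighs these most.

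Cirbp had an r of -0.62 with the heat shock sum (rho -0.71), -0.69 for deviations and -0.51 without the 2 LVs farthest from the median of the sum. This was not particular to heat shock genes. The r with Cirbp was -0.62 for the endothelial sum (-0.79 for deviations) and -0.55 for the hnRNP sum (-0.80). It was -0.37 for the other kinases (-0.75) and -0.36 for smooth muscle and pericyte markers (-0.66). The fibroblast and macrophage sums went the other way, at 0.34 (0.57) and 0.09 (0.65). Without the 2 LVs farthest from the median of each sum, the endothelial r was -0.07 and the hnRNP r -0.44. It was then -0.28 for the other kinases, -0.31 for smooth muscle and pericyte, 0.57 for fibroblast and 0.22 for macrophage. Hspa1a, an inducible chaperone chosen after its values were seen, ranged from 12.9 to 220.5 normalized counts within non-diabetic Wt, from 2.6 to 293.3 within diabetic Wt, from 7.9 to 171.5 within non-diabetic Hif1a+/- and from 8.0 to 59.3 within diabetic Hif1a+/-. Between diabetic and non-diabetic Hif1a+/- the 13 genes had a median of -0.20 (-0.10 without replicate 72), in Wt 0.09, with 0 past the edgeR or DESeq2 threshold and 1 of 13 at an unadjusted edgeR p under 0.05 in Hif1a+/-, beside 12.0% of all genes. Dnajb1, an HSP40 co-chaperone, had 461.6, 437.6 and 469.8 normalized counts in diabetic Hif1a+/- and 484.9, 621.3 and 1423.9 in non-diabetic Hif1a+/-, where replicate 44 stood apart (-0.89 ± 0.40, and -0.86 without replicate 72), and differed by -0.38 ± 0.39 in Wt. Hspe1, a mitochondrial co-chaperonin, overlapped between these groups (0.19 ± 0.12, and 0.20 without replicate 72). In Wt it differed by 0.18 ± 0.12, without overlap, where 2.24% of all genes lay wholly higher. The time and the manner in which the LVs were taken are not given in the sources used here, and their part was not tested. Clk3 also had a negative r with all 13 heat shock genes, with a median of -0.55 (median rho -0.37), whereas for Clk1 the median was 0.22. With the heat shock sum Clk3 had an r of -0.68 (rho -0.43), and -0.33 without the 2 LVs farthest from the median of the sum. This was not particular to heat shock genes, as its r with the cardiomyocyte sum was -0.79 (rho -0.81), and -0.64 without 2 LVs.

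**Figure D4:**
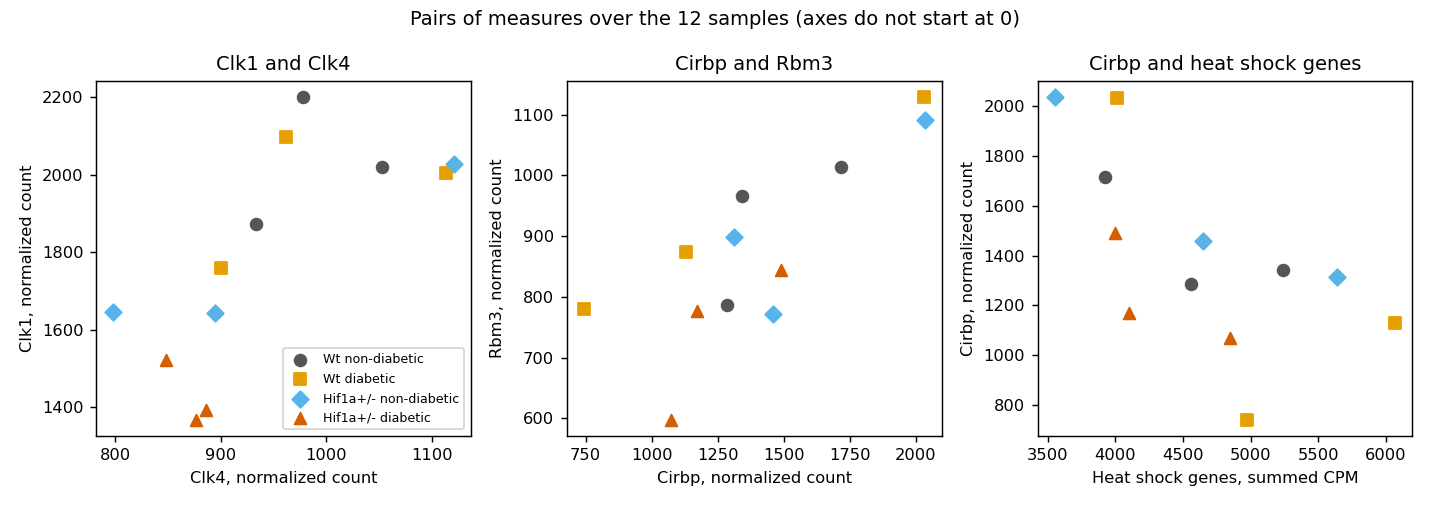
Each of the 12 LVs by Clk4 and Clk1 (left), Cirbp and Rbm3 (middle), both in normalized counts, and by the summed CPM of the 13 heat shock genes and Cirbp (right). Pearson's r on log2 values is 0.72, 0.72 and -0.62, and the diabetic Hif1a+/- LVs (triangles) lie below the other LVs in Clk1.

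Circadian clock genes, whose transcripts CIRBP and RBM3 are known to bind, did not run with Cirbp in one direction. Of 18 clock genes 9 had a positive and 9 a negative r with Cirbp, and 13 a positive one with Rbm3, with medians of 0.0 and 0.18. Single r values with Cirbp ran from -0.58 to 0.51. Replicates 14, 80 and 77, each with the most Cirbp of its group, had its lowest Arntl (120.6, 93.0 and 63.0) and highest Dbp (2385.0, 2420.5 and 1746.1). Non-diabetic Wt replicate 89, also with the most Cirbp, had the highest Arntl (487.0). Since clock genes can run opposite to one another, an even split cannot show whether Cirbp followed the clock, which was not tested. Between diabetic and non-diabetic Hif1a+/- their median was -0.18 (-0.19 without replicate 72) and in Wt 0.49, and none passed either threshold. An unadjusted edgeR p was under 0.05 for 2 of 18 in Hif1a+/-, beside 12.0% of all genes, and for 8 of 18 in Wt, beside 2.78%. Clock, a core activator of the circadian loop, differed by -0.40 ± 0.18 in Hif1a+/- (-0.41 without replicate 72), where its groups overlapped. In Wt it differed by -0.38 ± 0.18 without overlap, where 3.35% of all genes lay wholly lower.

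SR proteins and SR-related proteins ran with Clk1 from LV to LV. Their summed CPM had an r of 0.75 with Clk1 in each list, and 0.73 and 0.64 for deviations from the group means. Of the 21 SR-related genes 19 had a positive r with Clk1, led by Luc7l2 at 0.82 (rho 0.81), with a median of 0.61, and 20 with Clk2, with a median of 0.53. With Cirbp 17 of the 21 were negative, with a median of -0.18.

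The genes whose pattern was most like each member were taken over all 14705 other tested genes and 12 LVs by Spearman's rho. For Clk1 these were Lamp2, Gm28192, Dnajc7, Ifitm5 and Zfp280d, with rho from 0.85 to 0.90, and the most opposite were Medag, Cyb5d2 and Fdx1l, from -0.94 to -0.92. For Clk4 they were Zfp563, Gm12940, Lat2, Mapk1ip1 and Gm43071 (0.87 to 0.91), opposite G3bp1, Nsf and Gm8069 (-0.92 to -0.90). For Clk2 they were Zfp646, Nnat, Fnbp1, Gm37303 and Fbxl18 (0.88 to 0.91), opposite Gm17018, Hdgf and Gm42517 (-0.96 to -0.90). For Clk3 they were Gm9967, Ddhd1, Tcf4, Dnah17 and Tmem203 (0.87 to 0.91), opposite Wdr83, Gm6969 and Oxa1l (-0.93 to -0.89). 

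Cirbp was most like Rnf181, Clcn1, Tnfaip8, Prkab1 and Carns1 (0.92 to 0.93) and most opposite to Lims2, Atp6v1b2 and Zw10 (-0.97 to -0.93). Rbm3 was most like Rbm7, Gm44220, Astn2, Gm15446 and Hunk (0.86 to 0.91) and opposite to Tspan12 and Rab11fip3 (-0.91 and -0.88). Cirbp had 12 genes at a rho of at least 0.9 and 14 at most -0.9, the other 5 members between 0 and 3 in each direction. With so many genes and 12 LVs the highest rho of any gene is large, and no member was among the closest genes of another.

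The files hold 1 count per gene and say nothing of splicing. In the GENCODE M21 annotation 7 of 13 Clk1 transcripts and 7 of 14 Clk4 transcripts are retained-intron forms, as are 4 of 7 of Cirbp and 2 of 11 of Rbm3. A 3′ count adds up the forms that share a 3′ end.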

How the data were processed

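The authors made 3′-seq libraries from LV RNA of 12 mice, 3 in each of 4 groups of genotype and pregnancy, which were taken from the labels. The authors trimmed reads, removed ribosomal and mitochondrial reads, mapped the rest to GRCm38 with STAR (version 2.5.2b, per the submitters' processing notes) and the GENCODE M8 annotation and assigned them to genes with htseq-count in union mode. The first table they deposited holds raw counts, with no normalization. Lines that name no gene were left out here: reads placed at several sites (12.37% to 17.02% of a library), reads in no annotated feature (3.34% to 4.61%) and ambiguous reads (3.24% to 3.49%). The second deposited table holds a signal, each count divided by the library's DESeq2 size factor, called the normalized count here. Symbols came from GENCODE M21 (46488 of 46983 genes).

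No library repeated another: within groups the chi-square of each pair, divided by the number of genes, was 5.54 to 47.25, far over what counting alone gives. At this depth the spread between LVs, with a biological coefficient of variation of 13.7%, set the precision. All 12 libraries entered 1 edgeR quasi-likelihood fit (edgeR version 4.0.16, R version 4.3.3, TMM normalization, default filter by group, 14706 genes, Benjamini-Hochberg adjustment, threshold 0.1). Alternatives were DESeq2 (version 1.42.0), its size factors within edgeR, no filter, a threshold of 0.05, only the groups compared, voom from limma (version 3.58.1) with quality weights for samples and leaving out each library. Correlations used log2 CPM with a prior count of 2 and have no p. The fit was tested on simulated data of 14706 genes for diabetic against non-diabetic Hif1a+/-, where edgeR found 36% of simulated 1.5-fold changes and 80% of 2-fold ones. DESeq2 found 46% and 78%, and limma-voom 40% and 80%. Among genes simulated without a change, edgeR called 11, DESeq2 35 and limma-voom 9.

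The members, gene lists and tests were chosen with earlier results of these data known. Named were the 6 genes, Hif1a, genes overlapping a member, the leading marker of each list described, in each pathway list the genes past the threshold or else the 2 with the smallest p in diabetic against non-diabetic Hif1a+/-, and for each member the 5 most like and 3 most opposite genes. Exceptions are Hspb1, picked for its correlation with a member, Hspa1a, picked for its range, and Hsp90ab1 and Hspa8, picked for their level. Arntl and Dbp were picked after their values were seen. A few genes that this rule names are not reported here.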

Additional observations from a re-analysis of the deposited data

How the results depend on the processing

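All 7 tests gave 0 genes and 0 of the 6 with edgeR, with 409, 1764, 141, 787, 1302, 371 and 883 genes at an unadjusted p under 0.05, in the order diabetic against non-diabetic pregnancy in Wt and in Hif1a+/-, Hif1a+/- against Wt after non-diabetic and after diabetic pregnancy, diabetic Hif1a+/- against non-diabetic Wt, interaction, and any difference. DESeq2 gave 4, 201, 1, 24, 68, 0 and 130 genes in that order and 1 of the 6, Clk1, against diabetic Wt, against non-diabetic Wt and for any difference. Without a filter edgeR gave 129, 592, 33, 220, 445, 78 and 689 genes, and 1 of the 6, again Clk1, in the same 3. Only the groups compared gave 101 genes for pregnancy in Hif1a+/-, and limma-voom 937 there, 1 for diabetic Hif1a+/- against diabetic Wt and 2 against non-diabetic Wt, with 0 of the 6. Leaving out 1 library gave 0 to 38 genes for pregnancy in Hif1a+/- (38 without diabetic Hif1a+/- replicate 72, 12 and 9 without diabetic Wt replicates 80 and 7, and 1 without diabetic Hif1a+/- replicate 66), 0 to 2 against diabetic Wt (2 without replicates 7 or 72), 0 to 1 against non-diabetic Wt and in the interaction, 0 to 5 for any difference (5 without diabetic Wt replicate 7), 0 in the other 2 tests and 0 of the 6 in each. The threshold of 0.05 and DESeq2 size factors within edgeR gave 0. The cause of these differences was not tested.

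Of 606 member fold changes under alternatives, 3 moved by more than the spread within groups, all of Cirbp without diabetic Wt replicate 80. Diabetic against non-diabetic Wt moved from -0.17 to -0.63, and Hif1a+/- against Wt after diabetic pregnancy from -0.06 to 0.41. The interaction moved from -0.21 to 0.26. Without diabetic Hif1a+/- replicate 72, Cirbp differed by -0.03 for Hif1a+/- against Wt after diabetic pregnancy and by -0.17 in the interaction. The Clk1 difference of diabetic Hif1a+/- ranged from -0.37 to -0.21 against non-diabetic Hif1a+/-, from -0.53 to -0.40 against diabetic Wt and from -0.56 to -0.45 against non-diabetic Wt over the alternatives run. With DESeq2 size factors 4 or 5 of the 5 genes most like a member were the same, and 2 for Clk3. No paired analysis was possible because the litter of each animal is not given in the sources used here. In the simulated diabetic against non-diabetic Hif1a+/- comparison edgeR missed most changes of 1.5-fold, and the other comparisons were not simulated.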
